A study of Mus musculus with 16 samples.

Results

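The transcripts described here were the adult hemoglobin genes Hba-a1, Hba-a2, Hbb-bs and Hbb-bt and the erythroid heme enzyme gene Alas2, chosen by name from the gene count table, 5 genes of 55335 in all. They were measured by bulk RNA sequencing of the hippocampus of 16 female mice in 4 groups of 4, all infused into a lateral ventricle for 28 days and dissected at 10 months of age. WT-D and 3xTg-D received vehicle, artificial cerebrospinal fluid with 0.8% DMSO. WT-S and 3xTg-S received a stearoyl-CoA desaturase inhibitor in the same vehicle, labelled Cayman in the sample names. The study's methods name the Cayman compound as CAY10566 and give 80 µM for either inhibitor that the study used. The protocol text shared by all samples also gives 80 µM, but under the name of another desaturase inhibitor. WT mice came from a C57BL/6J by 129S1 cross, and 3xTg mice, of a B6;129 background, carried, among other alleles, the human APPSwe and tauP301L transgenes under the neuronal Thy1.2 element. The WT and 3xTg lines therefore differed in strain history as well as in transgenes, and these cannot be told apart in this design. The study's methods did not state that the mice used for bulk sequencing were perfused.

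Hemoglobin is a tetramer of alpha and beta chains that carries oxygen in red blood cells. Reticulocytes, the youngest circulating red cells, still hold globin mRNA, so globin reads in a brain sample can come from blood left in its vessels, and low globin expression has also been described in neurons and glia. Alas2 encodes the erythroid form of aminolevulinate synthase, the first and rate-limiting enzyme of heme synthesis. Laboratory mouse strains differ in the beta-globin locus. The C57BL/6 reference carries the single haplotype with Hbb-bs and Hbb-bt, while 129-derived strains carry the diffuse haplotype with the genes Hbb-b1 and Hbb-b2, which were not in the count table under those names.

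On GRCm38, Hba-a1 (ENSMUSG00000069919.7) lay on the plus strand at chr11:32283511-32284465 and Hba-a2 (ENSMUSG00000069917.7) at chr11:32296489-32297298. Hbb-bs (ENSMUSG00000052305.6) and Hbb-bt (ENSMUSG00000073940.3) lay on the minus strand at chr7:103826534-103828096 and chr7:103812524-103813996, and Alas2 (ENSMUSG00000025270.13) on the plus strand at chrX:150547375-150570638. The copies of each pair are nearly identical, which set how their reads could be counted. In Gencode M21 the 429 coding bases of Hba-a1 and Hba-a2 differed at 1 position, C381T, and the 444 coding bases of Hbb-bs and Hbb-bt at 1 position, C417T (the first gene's base, the position counted from the A of the start codon, then the second gene's base). The coding stretches that hold these positions are shown because a read within the coding sequence can be assigned to 1 copy only if it covers the base in capitals.
Hba-a1, coding bases 344 to 418: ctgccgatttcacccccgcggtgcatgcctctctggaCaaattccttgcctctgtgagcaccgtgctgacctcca
Hba-a2, coding bases 344 to 418: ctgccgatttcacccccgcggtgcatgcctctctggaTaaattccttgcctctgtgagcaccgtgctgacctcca
Hbb-bs, coding bases 370 to 444: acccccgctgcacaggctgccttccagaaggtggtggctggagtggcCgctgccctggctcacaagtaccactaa
Hbb-bt, coding bases 370 to 444: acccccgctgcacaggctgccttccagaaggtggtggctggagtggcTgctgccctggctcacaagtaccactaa

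Of all 75-base windows of the longest annotated transcript, 62.2% for Hba-a1, 81% for Hba-a2, 64.3% for Hbb-bs and 56.6% for Hbb-bt were also present in the other copy. Reads from such windows align to both places, and reads aligned to several places were in no gene's count. The counts of these genes are therefore counts of the reads that tell the copies apart, and they understate total globin mRNA. For Alas2, 12.1% of windows were shared, with Apex2, which overlaps it.

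Hbb-bs was the most abundant member in every group. Its mean level with vehicle was 24.4 ± 9.96 CPM (CPM, counts per 1000000 reads on genes; SD, n = 4 mice) for WT-D and 36.4 ± 15.4 for 3xTg-D. With the inhibitor it was 29.4 ± 5.34 CPM for WT-S and 56.9 ± 36.4 for 3xTg-S. The 16 libraries held 15413385 to 23590149 reads on genes, so that Hbb-bs was covered by 288 to 1841 reads and Alas2 by 17 to 128. Per length, the mean level over all 16 mice was 47.9 RPKM for Hbb-bs, 8.04 for Hbb-bt, 2.45 for Hba-a2, 2.23 for Hba-a1 and 0.837 for Alas2, with exon lengths from Gencode M21. Hba-a1 and Hba-a2 differed by less than their SDs of 1.39 and 1.51 RPKM. The exon lengths used include the windows shared between copies. Windows found in 1 copy only numbered 236 for Hba-a1, 91 for Hba-a2, 198 for Hbb-bs and 273 for Hbb-bt. RPKM is therefore lowered by a different factor in each gene, and its order does not rank the globin mRNAs.

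The beta-globin Hbb-bs was measured at 12.4, 33.5, 20.2 and 31.6 CPM in WT-D mice 1 to 4 and at 58.1, 35.7, 28.7 and 23.04 in 3xTg-D mice 1 to 4. In inhibitor-infused mice it was 25.3, 24.2, 33.9 and 34.0 CPM in WT-S mice 1 to 4 and 93.2, 83.3, 27.9 and 23.3 in 3xTg-S mice 1 to 4. The first and second 3xTg-S mice and the first 3xTg-D mouse held the 3 highest values, while the other 2 3xTg-S mice lay within the range of the WT mice. Its partner Hbb-bt was measured at 1.33, 3.74, 2.52 and 3.61 CPM in WT-D and at 10.1, 5.04, 4.15 and 4.21 in 3xTg-D, so that every 3xTg-D mouse lay above every WT-D mouse. With the inhibitor, Hbb-bt was 2.37, 1.79, 4.11 and 4.66 CPM in WT-S and 18.0, 16.5, 5.01 and 3.33 in 3xTg-S. Here 3 of the 4 3xTg-S mice lay above all WT-S mice.

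The alpha-globin Hba-a1 was measured at 0.686, 1.29, 1.01 and 1.52 CPM in WT-D, and at 2.46, 1.87, 1.37 and 1.27 in 3xTg-D. It was 1.23, 1.54, 1.78 and 1.46 CPM in WT-S, and 4.93, 4.03, 1.16 and 1.34 in 3xTg-S. The same 2 3xTg-S mice were again the highest, and the groups overlapped in each comparison. Hba-a2 was measured at 0.515, 1.68, 0.756 and 1.25 CPM in WT-D, and at 1.81, 1.57, 1.16 and 1.55 in 3xTg-D. It was 0.994, 1.13, 1.32 and 1.19 CPM in WT-S, and 4.67, 3.21, 1.80 and 1.56 in 3xTg-S. All 4 3xTg-S mice exceeded all 4 WT-S mice in Hba-a2.

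Alas2 was measured at 1.03, 1.10, 1.56 and 1.52 CPM in WT-D, and at 2.68, 1.48, 1.84 and 0.941 in 3xTg-D. It was 0.804, 1.18, 1.37 and 2.22 CPM in WT-S, and 4.80, 5.79, 2.25 and 1.61 in 3xTg-S. The first and second 3xTg-S mice again held the 2 highest values. As in any bulk sample, more blood in the tissue and more globin mRNA per cell cannot be told apart from these levels.

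**Figure D1:**
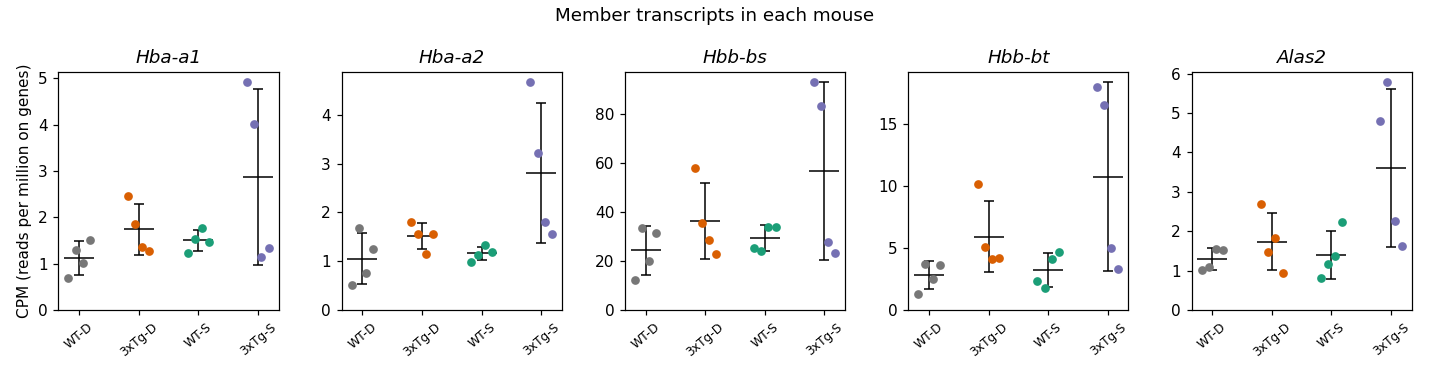
Level of each member in CPM (y axis, from 0, a separate scale per gene) in the 4 groups (x axis). Each point is 1 mouse, and the black dash and bar are the group mean and SD; 2 mice of 3xTg-S stand above all others in all 5 genes.

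The first comparison asked how 3xTg mice differed from WT mice without inhibitor. No member passed the study's threshold of 0.01 on the unadjusted value, applied here to edgeR's quasi-likelihood test, against 4.91% of the 16475 genes tested. The 5 fitted log2 fold changes (3xTg-D over WT-D) were all above 0, between 0.43 for Alas2 and 1.09 ± 0.36 (SE) for Hbb-bt, whose edgeR adjusted p was 0.232. With Hbb-bs and Hbb-bt counted together the change was 0.65 ± 0.34, without a test. Without the first 3xTg-D mouse the changes were 0.69 for Hbb-bt, 0.28 for Hbb-bs and 0.15 for Alas2, and without the first WT-D mouse they were 0.37 for Hbb-bs and 0.31 for Hba-a2. Hbb-bt did not overlap between these groups, which was so, with 3xTg-D higher, for 4.08% of genes tested.

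With the inhibitor in both genotypes, Hba-a2, Hbb-bt and Alas2 were higher in 3xTg-S than in WT-S at that unadjusted threshold. The log2 fold changes were 1.28 ± 0.34 for Hba-a2 (edgeR adjusted p = 0.133), 1.75 ± 0.53 for Hbb-bt (adjusted p = 0.191) and 1.41 ± 0.43 for Alas2 (adjusted p = 0.21). Of all genes tested, 4.26% passed in either direction and 1.79% in this direction, and 2.5% had every 3xTg-S mouse above every WT-S mouse, as Hba-a2 did. Hba-a1 (0.94 ± 0.44, edgeR adjusted p = 0.478) and Hbb-bs (0.97 ± 0.41, adjusted p = 0.414) did not pass. Both beta-globin copies counted together gave 1.07 ± 0.42, without a test. With the replicate number as a block, 8.13% of genes passed but the calls of Hbb-bt (1.53) and Alas2 (1.31) were lost, and Hba-a2 (1.20) kept its own. In the main edgeR fit, none of the 5 passed 0.05 after Benjamini-Hochberg adjustment over all genes, in this or any other comparison. Some members passed it under alternative fits, which are given below. Without the first and second 3xTg-S mice, a choice made after seeing the data, no member passed, and the changes were 0.51 for Hba-a2, 0.35 for Hbb-bt, 0.45 for Alas2, -0.28 for Hba-a1 and -0.22 for Hbb-bs. Leaving out the first 3xTg-S mouse alone, or the first WT-S mouse alone, also gave no call.

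Within 3xTg, the inhibitor comparison gave log2 fold changes (3xTg-S over 3xTg-D) from 0.68 for Hbb-bs to 1.10 ± 0.43 for Alas2, with no call against 0.904% of genes. The edgeR adjusted p was 0.722 for Hba-a2, Hbb-bt and Alas2. With the replicate number as a block, Hba-a2 (0.84), Hbb-bs (0.55) and Alas2 (1.05) passed the unadjusted threshold in the same test, where 6.88% of genes did, although the numbers did not meet the condition for pairing. Without the first and second 3xTg-S mice, Hba-a1, Hbb-bs and Hbb-bt were at -0.47, -0.51 and -0.49. In WT mice the inhibitor comparison (WT-S over WT-D) gave values from 0.11 for Alas2 to 0.45 for Hba-a1, with no call against 0.188% of genes.

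WT-D and 3xTg-S, which differ in both factors, were also compared. Hba-a2 (1.44), Hbb-bt (1.98) and Alas2 (1.52) were higher in 3xTg-S by log2 fold change, with edgeR adjusted p = 0.152, adjusted p = 0.121 and adjusted p = 0.106 in that order, where 5.69% of genes passed in either direction and 2.26% in this one. Both beta-globin copies together gave 1.35 ± 0.48. Alas2 did not overlap between these groups, as for 3% of genes. Leaving out the first WT-D mouse, or the first 3xTg-S mouse, gave no call here. The genotype by inhibitor interaction called no member against 0.595% of genes, with differences of 0.31 for Hba-a1 to 0.99 ± 0.58 for Alas2, so that the larger genotype difference with inhibitor was not shown to differ from that with vehicle.

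**Figure D2:**
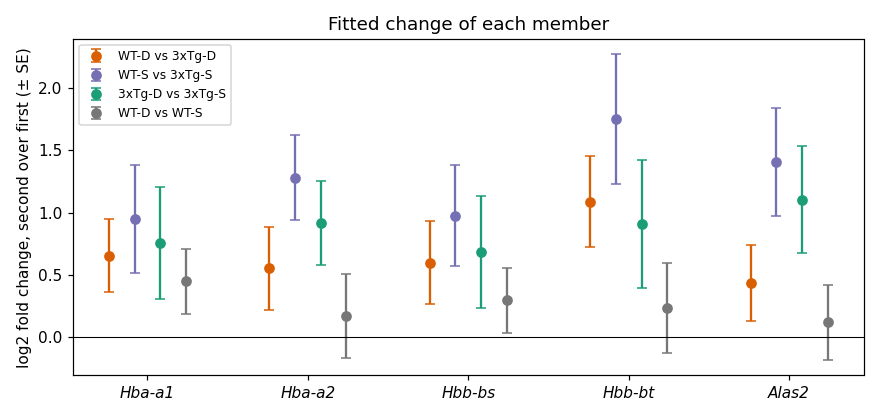
Fitted log2 fold change of each member (x axis) in 4 comparisons, as the second named group over the first, with SE bars from the edgeR fit. All 20 values are above 0, and the WT-S vs 3xTg-S values reach 1.75 for Hbb-bt.

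The share of assigned beta-globin reads that fell on Hbb-bt separated the genotypes. It is a share of reads that tell the reference copies apart, so it can depend on the allele of the locus as well as on expression. Hbb-bt reads made up 9.72% to 11.1% of Hbb-bs plus Hbb-bt reads in WT-D and 6.89% to 12.04% in WT-S, against 12.4% to 15.4% in 3xTg-D and 12.5% to 16.5% in 3xTg-S. Every one of the 8 3xTg mice lay above every one of the 8 WT mice, with means of 14.5% ± 1.71 and 9.93% ± 1.60 (SD, n = 8). The mean log2 ratio of Hbb-bt to Hbb-bs was 0.62 higher in 3xTg, with p = 0.000408 by a two-sided exact permutation test, which its 4900 arrangements cannot go below, and 0.00163 after adjustment over 4 tests. It was 0.47 higher among vehicle-infused and 0.77 higher among inhibitor-infused mice, each with an exact p of 0.0286, the smallest for 4 against 4. The difference was 0.54 to 0.67 when any 1 mouse was left out. Inhibitor and vehicle differed by 0.0014 in this ratio (exact permutation p = 0.991).

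Counting error was small beside this difference in the mice with the most beta-globin reads, but not in all mice. The highest WT mouse, the fourth of WT-S, had 12.04% with a 95% Wilson interval of 9.86% to 14.6%, and the lowest 3xTg mouse, the second of 3xTg-D, had 12.4% with an interval of 10.4% to 14.6%. The intervals cover counting error only. The alpha-globin copies gave no such separation. Hba-a2 made up 45.2% ± 4.67 of Hba-a1 plus Hba-a2 reads in WT and 49.5% ± 6.36 in 3xTg (log2 ratio difference 0.24, exact permutation p = 0.158, adjusted 0.317).

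**Figure D3:**
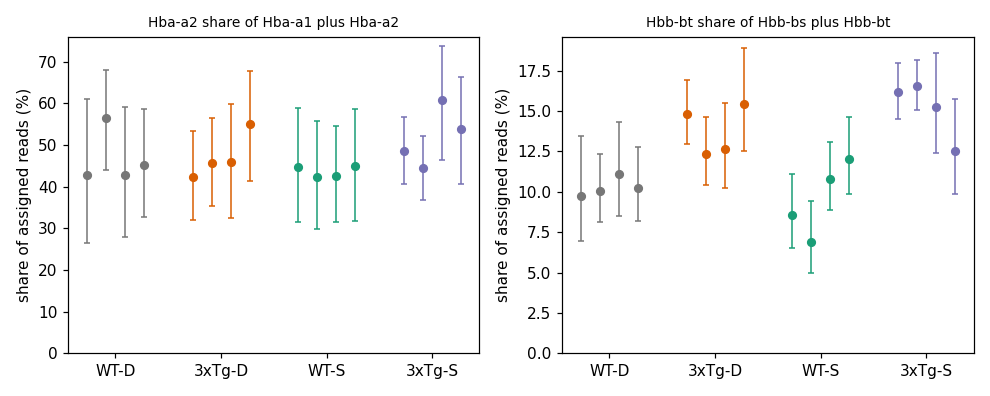
Share of assigned reads (y axis, %, from 0) of Hba-a2 among both alpha-globin copies and of Hbb-bt among both beta-globin copies, 1 point per mouse with its 95% Wilson interval, in the 4 groups (x axis). The Hbb-bt share is at most 12.04% in the 8 WT mice and at least 12.4% in the 8 3xTg mice.

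Genes beside the beta-globin locus also differed between the genotypes. Within 1 Mb of Hbb-bs and Hbb-bt on chromosome 7, 6 genes were tested, all of the Trim family of antiviral ubiquitin ligases, and 4 of them were higher in 3xTg-D than in WT-D against the 4.91% of genes called in that comparison. Trim12a had 0 reads in all 4 WT-D mice and in WT-S mice 1 to 3, but 30 in the fourth WT-S mouse, and 48 to 157 in the 8 3xTg mice. Its mean of 4.28 CPM in 3xTg-D was at least 29.5-fold higher than in WT-D, taking 3 reads per library as the floor of WT-D. Trim30d was at 0 to 9 reads in WT-D and 1 to 2 in WT-S mice 1 to 3, at 19 in the fourth WT-S mouse, and at 22 to 167 in 3xTg mice. Trim5 had at most 1 read in those 7 WT mice, 7 in the fourth WT-S mouse and 6 to 32 in 3xTg mice. Trim34a was higher in 3xTg-D by 2.26 ± 0.46 on the log2 scale (edgeR adjusted p = 0.0374).

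The fourth WT-S mouse, which alone among WT mice had Trim12a reads, also had the highest Hbb-bt share of the WT mice, an observation made after the values were seen. The second 3xTg-D mouse went the other way. It had the highest level of each called Trim gene among all mice (157 reads of Trim12a), but the lowest Hbb-bt share of the 3xTg mice (12.4%). Between WT-S and 3xTg-S, 3 of the 6 genes were called, all higher in 3xTg-S. Of all genes, 4.26% passed there in either direction and 1.79% in this one. Between the treatments of 1 genotype none of the 6 was called, where only 0.904% of all genes were in 3xTg and 0.188% in WT. Near Hba-a1 and Hba-a2 on chromosome 11, 16 genes were tested and none was called in any comparison, beside 0.188% to 5.69% of all genes. Trim5, Trim12a and Trim12c, and likewise Trim30a and Trim30d, are close relatives, so their reads may be split or lost between copies. Whether the Trim and Hbb-bt differences reflect the strain haplotype of this region was not tested, since the files hold no genotypes.

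**Figure D4:**
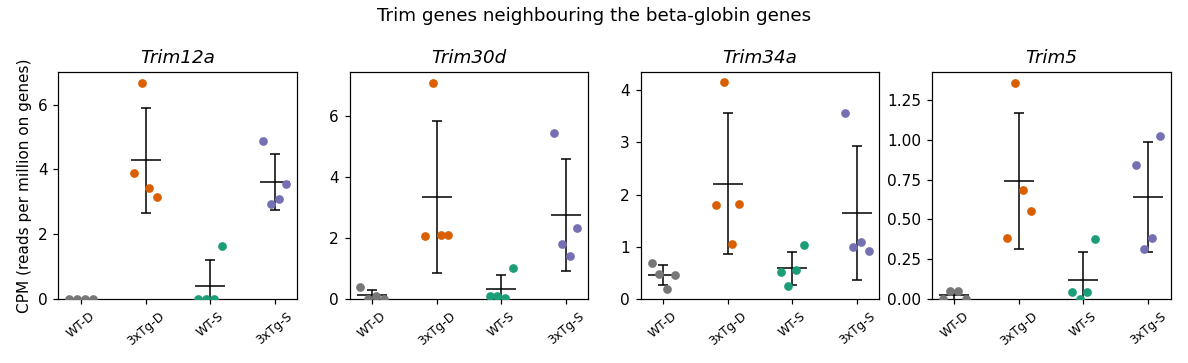
Level in CPM (y axis, from 0, a separate scale per gene) of the 4 called Trim genes near the beta-globin genes in the 4 groups (x axis); points are mice, and the black dash and bar are mean and SD. Trim12a is at 0 in 7 of 8 WT mice.

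The members rose and fell together from mouse to mouse. Across 16 mice, log2 CPM of Hbb-bs correlated with Hba-a1 (Pearson r = 0.965, Spearman rho = 0.859), Hba-a2 (0.899 and 0.729), Hbb-bt (0.948 and 0.815) and Alas2 (0.830 and 0.618). The permutation p of r was 1e-05, the smallest that 100000 resamples give, for Hba-a1 and Hbb-bt, 2e-05 for Hba-a2 and 0.00019 for Alas2, and the adjusted p over 8 relations was at most 0.00038. The permutation p of rho was 7e-05, 0.00188, 0.00026 and 0.0131 in the same order as the coefficients, at most 0.0263 after adjustment. Without the first and second 3xTg-S mice, the farthest from the median, r was 0.918, 0.757, 0.875 and 0.564, and rho was 0.789, 0.596, 0.723 and 0.433. For Alas2 the permutation p was then 0.0335 for r and 0.125 for rho, so that its rank relation no longer passed. Within genotypes, the correlation with Alas2 was 0.906 in 3xTg mice (exact permutation p = 0.00231, n = 8) and 0.385 in WT mice (exact permutation p = 0.343, n = 8), so that it rested on the 3xTg mice.

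**Figure D5:**
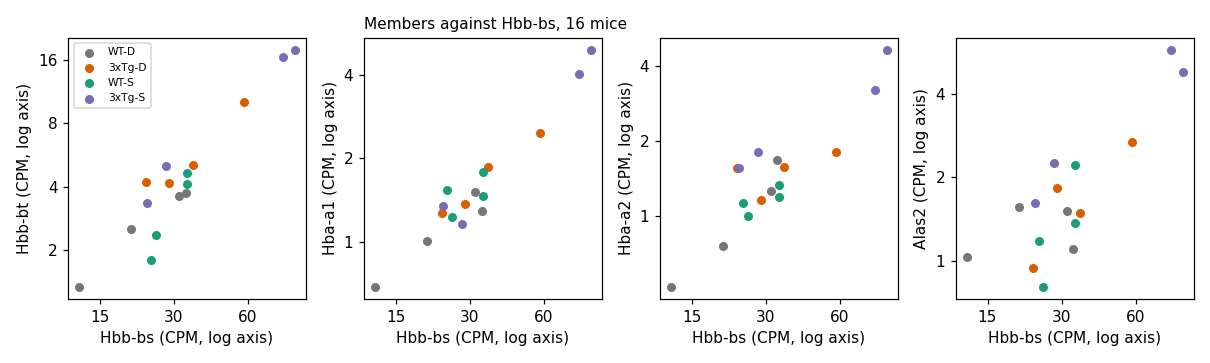
CPM of Hbb-bt, Hba-a1, Hba-a2 and Alas2 (y axes, log scale) against CPM of Hbb-bs (x axis, log scale), 1 point per mouse, coloured by group. The points rise together, and the first and second 3xTg-S mice lie at the upper right of each panel.

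After group means were subtracted, the members most like Hbb-bs were Hbb-bt (r = 0.964), Hba-a1 (0.953) and Hba-a2 (0.896), which held the first 3 places among all genes tested, and Alas2 held place 7 (0.797). The 8 other genes most like it were H3f3aos (0.839), 2410022M11Rik, Smc2os, Spin1, Arhgap24, Rnasek, Mios and Calr4 (0.750). These are descriptions over 16 mice that share library and depth.

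No marker sum of another cell type passed a test of correlation with Hbb-bs. The summed level of leukocyte and platelet markers had r = 0.231 with Hbb-bs (permutation p = 0.36), endothelial markers -0.288 (p = 0.281), choroid plexus markers -0.0901 (p = 0.725) and the share of reads outside genes -0.119 (p = 0.661), all by permutation over 16 mice. The 9 neutrophil markers, among them S100a8 and S100a9, summed to 0.0453 to 0.771 CPM over all mice, none passed the filter on low counts, and Ly6g had no read. Lymphocyte markers summed to 9.93 to 96.7 CPM, most of it from the immunoglobulin genes Ighm and Igkc. On the log2 scale, Ighm was higher in 3xTg by 0.93 ± 0.27 with vehicle (edgeR adjusted p = 0.153) and 0.65 ± 0.14 with inhibitor (adjusted p = 0.0594). Between the genotypes 4.91% of all genes were called with vehicle and 4.26% with inhibitor. Neither of the other tested lymphocyte markers, Trac and Igkc, was called. Trac went the other way, with lower 3xTg means (0.578 CPM against 0.723 with vehicle, 0.499 against 0.605 with inhibitor). The Igkc mean of 15.1 CPM for 3xTg-D came largely from a single mouse at 57.5 CPM. The choroid plexus sum was 39.5 to 827 CPM in WT-D (median 68.5) and 36.5 to 329.5 in WT-S (41.01). It was 39.7 to 58.8 CPM in 3xTg-D (median 41.3) and 40.7 to 43.1 in 3xTg-S (42.5). Kl alone was at a mean of 28.2 CPM and at least 21.5 in every mouse, which sets the lower end of this sum. Ighm and Igkc likewise make up most of the leukocyte and platelet sum, at means of 16.3 and 4.52 CPM. The correlations therefore follow a few abundant markers and say little about the amount of these cells. The part of these cells in the globin levels was not tested.

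Other genes of red cells ranged from nearly absent to more abundant than Hbb-bs. Of 12 red cell membrane genes 5 were tested, and the anion exchanger Slc4a1, a defining one, was below the filter at a mean of 0.127 CPM, while Sptb, Ank1 and Epb41, which neurons also express, were at 285.7, 40.4 and 28.4. The only call in this list was Epb41, a cytoskeletal linker of many cells, lower in 3xTg-D by -0.35 ± 0.07 (edgeR adjusted p = 0.0377). The median of the list was 0.18 in WT-S vs 3xTg-S, beside 0.0019 for all genes. Among 10 red cell enzymes and chaperones in the table, 5 were tested. Slc25a37, the mitochondrial iron importer mitoferrin, was higher in 3xTg by 0.36 ± 0.10 with vehicle (edgeR adjusted p = 0.105) and 0.57 ± 0.15 with inhibitor (adjusted p = 0.139). Tfrc, the transferrin receptor, was lower in 3xTg-S than in WT-S (-0.42 ± 0.10, adjusted p = 0.0888). Of all genes tested, 4.91% were called between genotypes with vehicle and 4.26% with inhibitor. Tfrc, Prdx2 and Bpgm, which other cells also express, were at 148.9, 122 and 61.6 CPM.

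All 11 heme synthesis genes were tested, and 1, Cpox, passed the unadjusted threshold. It was higher in 3xTg-S than in WT-S by 0.23 ± 0.07 (edgeR adjusted p = 0.15), with a list median of -0.0024. Among 10 tested genes of heme and iron handling, the iron exporter Slc40a1 was lower in 3xTg-S than in WT-S by -0.50 ± 0.12 (edgeR adjusted p = 0.0919). Hmox1, which breaks down heme, was at 4.62 CPM with no call. The most abundant genes of these lists were the ferritin gene Fth1 (1921 CPM) and Lrp1 (302 CPM). None of the 5 tested erythroid regulators passed in any comparison. Bcl11a, which cortical and hippocampal neurons also express, was at 118.6 CPM, whereas Gata1, the master regulator of red cell development, had 1 read over all 16 mice together and Klf1 27. The embryonic globins Hbb-bh1 and Hba-x had no read, Hbb-y had 6, and the neuronal globin Ngb and the widely expressed Cygb were at 1.52 and 48.1 CPM, with no call in any comparison.

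Promoter stretches are shown as a description of the reference sequence. Whether they bear on the members moving together was not tested. They were read from RefSeq (GRCm38.p6), which held all 5 members, and lie before the annotated start and outside annotated exons. Capitals mark letters searched on both strands over the 120 bases before the start. One motif was CCAAT, another was CACCC, and a box near the start was TATAAA or, as its variant, CATAAA. The GATA-type motif was any of 4 spellings, which were AGATAA and its variant AGATAG, and likewise TGATAA and its variant TGATAG.
Hba-a2, chr11:32296372-32296488, plus strand: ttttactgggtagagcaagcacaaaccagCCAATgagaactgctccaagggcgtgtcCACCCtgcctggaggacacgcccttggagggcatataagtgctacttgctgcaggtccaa
Hbb-bs, chr7:103827929-103828011, minus strand: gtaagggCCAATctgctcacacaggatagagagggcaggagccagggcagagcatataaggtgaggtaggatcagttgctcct
Alas2, chrX:150547297-150547374, plus strand: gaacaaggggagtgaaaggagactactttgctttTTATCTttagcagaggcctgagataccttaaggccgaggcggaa

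All 4 globin genes had CCAAT and CACCC in these 120 bases, letters present in 21.3% and 31.7% of 32851 promoters. Alas2 had CACCC too, so that it was shared by all 5 members, but no CCAAT. The CACCC matches of Hbb-bs (90 bases before the start) and of Alas2 (40, 35 and 30 bases before it) lie outside the stretches shown. Alas2 alone among the members had GATA-type letters (12.8% of promoters), and Hbb-bt alone had TATAAA (10.9% for TATAAA or CATAAA). The Hba-a2 and Hbb-bs stretches hold catataag near the start, a spelling that was not searched for. The TATAAA difference therefore rests on the spellings chosen. These matches are descriptions of the reference sequence, not of binding.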

How the data were processed

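RNA from each hippocampus was made into poly(A) libraries and sequenced in single 75-base reads. The authors trimmed reads with Trimmomatic 0.35 and aligned them with STAR 2.5.1b to GRCm38 with Gencode annotation, and deposited raw read counts per gene. The strand setting, and whether molecular identifiers were used to collapse duplicates, are not given in the sources used here. The 4 summary lines of the table, which name no gene, were left out; reads outside genes were 7.82% to 15.1% of uniquely mapped reads. Each group held 4 mice labelled as separate samples.

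Genes passing edgeR's expression filter over 16 mice (16475) were fitted pairwise with edgeR 4.0.16 (TMM, quasi-likelihood, R 4.3.3), and a call was an unadjusted value of 0.01 or less, the study's threshold, with Benjamini-Hochberg adjusted values printed. The fits were tested on simulated counts. Levels are CPM of reads on genes, and log2 CPM used a prior count of 2. Copy shares were tested by exact permutation within strata with 0.5 added to each count. Alternatives were DESeq2 1.42.0, other scaling, no filter, a replicate block, 1 fit of all mice, near-identical copies summed and each mouse left out. The text gives the members in every mouse, and summary values of genes drawn from those called or among the 3 most abundant of their list, of a few scarce defining genes and Hmox1 chosen after values were seen, of called neighbours within 1 Mb and of the 8 genes most like Hbb-bs. Members and lists were chosen with earlier results of these data known. Numbers were taken to pair mice where all 4 correlations of same-numbered deviations passed 0.1. WT-D and WT-S met this (0.114 to 0.339), and the block changed no call of a member there. The others did not, although most correlations were above 0 (-0.10 to 0.496). Some items of the lists and of the mouse line's description are not reported here.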

Additional observations from a re-analysis of the deposited data

Results flagged for a closer look

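Of 28 combinations of a group and a measure (CPM of 5 members and 2 copy shares), 1 had a mouse far from the rest of its group by Dixon's test at 95%, about as many as chance gives. Hbb-bt was at 10.1 CPM in the first 3xTg-D mouse, while the median of 3xTg-D was 4.63. The first and second 3xTg-S mice lay apart as a pair, which this test for a single mouse cannot mark.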

How the results depend on the processing

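The direction of the Hbb-bt share between genotypes, and its side of the 0.05 threshold, held under every alternative run. The number of members called was less stable. In WT-D vs 3xTg-D it was 1, Hbb-bt, by DESeq2 (5.3% of all genes called) and without a filter on low counts (3.45%). In WT-S vs 3xTg-S it was 5 without the filter (3.17% of genes), 1 with the replicate block (8.13%) and 0 to 4 with 1 mouse left out. At an adjusted p of 0.05 it was 0 in the main fit. By DESeq2, Hba-a2 then passed (adjusted p = 0.0371), as did 404 of 16466 genes. Without the filter, Hba-a2 (edgeR adjusted p = 0.0233), Hbb-bt (0.00572) and Alas2 (0.0262) passed, as did 399 of 33942 genes. In 3xTg-D vs 3xTg-S the number called was 2 without the filter (1.05%), 3 with the replicate block (6.88%) and 0 to 2 with 1 mouse left out. In WT-D vs 3xTg-S it was 5 without the filter (3.72%), 5 with all 16 mice in 1 fit (6.1%) and 0 to 5 with 1 mouse left out. At an adjusted p of 0.05 it was 0 in the main fit. By DESeq2, Alas2 (adjusted p = 0.0147) and Hba-a2 (0.0496) then passed, as did 577 of 16419 genes. With all mice in 1 edgeR fit, Hba-a2 (adjusted p = 0.0381) and Hbb-bt (0.0473) passed, as did 436 of 16475 genes. Without the filter, Hbb-bt (edgeR adjusted p = 0.0149) and Alas2 (0.0254) passed, as did 418 of 33942 genes. Alas2 also passed without the fourth 3xTg-S mouse (0.0465). The replicate block changed the count in no other comparison, and the cause of these changes was not tested.

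Without the first and second 3xTg-S mice, chosen after seeing the data, 0 members were called in WT-S vs 3xTg-S and 0 in WT-D vs 3xTg-S. Directions reversed there for Hba-a1 (-0.28) and Hbb-bs (-0.22) in WT-S vs 3xTg-S, for Hba-a1 (-0.47), Hbb-bs (-0.51) and Hbb-bt (-0.49) in 3xTg-D vs 3xTg-S, and in the interaction for Hba-a1 (-0.93), Hba-a2 (-0.039), Hbb-bs (-0.81) and Hbb-bt (-0.74). With 1 mouse left out, uncalled log2 changes ranged from -0.070 to 0.50 for Hba-a2, from -0.010 to 0.43 for Hbb-bt and from -0.19 to 0.31 for Alas2 in WT-D vs WT-S, and from -0.049 to 0.56 for Hba-a1 in the interaction.

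The Hba-a2 log2 ratio difference between genotypes ranged from 0.15 to 0.33 with 1 mouse left out, and passed 0.05 only without the second WT-D mouse. Between treatments it was -0.19 in WT mice alone and -0.066 to 0.12 with 1 mouse left out. The Hbb-bt ratio between treatments was -0.0061 with 5 added to each count, -0.15 in WT mice alone and -0.076 to 0.12 with 1 mouse left out. In WT mice alone r with Hbb-bs was 0.39 for Alas2, 0.33 for endothelial, -0.55 for leukocyte and platelet and 0.24 for choroid plexus markers, and 0.19 for the share outside genes. Without the 2 farthest mice the choroid plexus value was 0.050, and with 1 mouse left out r with the share outside genes ranged from -0.32 to 0.14. Alas2, Hba-a1 and Hba-a2 rested on as few as 17, 16 and 12 reads in a library, which limits their precision.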
